A study of Mus musculus with 9 samples.

Results

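Long noncoding RNAs (lncRNAs) are transcripts that are not annotated as coding for a protein, and many of them are spliced and polyadenylated like messenger RNAs. The 148 lncRNAs described here were selected from the 55487 genes of the count table as those with the biotype lncRNA and 500 or more counts summed over all libraries, leaving out H19, Meg3 and Rian. Of 4062 lncRNA genes in the annotated tables, 151 reached that sum before those exceptions. The sum chose the members, so how abundant they are is a description. It also took in the libraries compared below, so a lncRNA high in a single group could reach it through that group. The lowest sums inside the limit were 500 for C130083M11Rik, 501 for Brip1os and 502 for Snhg17, and the highest outside it were 486 for Gm47283 and 485 for both Gm21781 and Gm9869. The median member had a sum of 1020.5 counts, and Neat1, the highest, had 122217.

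Some lncRNAs stay in the nucleus and organise structures there, as Neat1 does for paraspeckles and Malat1 at nuclear speckles. Others act in the cytoplasm by binding microRNAs or proteins, and many are carriers, releasing snoRNAs (guides for the chemical modification of ribosomal RNA) from their introns or microRNAs from a processed hairpin. A further kind starts beside or runs across a coding gene, and for some of these it is the act of transcription that affects the neighbour. In muscle, lncRNAs and the microRNAs they carry are known for roles in myoblast differentiation and fibre type.

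RNA came from the gastrocnemius, a calf muscle, of mice labelled as male, wild-type C57BL/6, and was selected for polyadenylated transcripts, which samples RNAs without a poly(A) tail poorly. The 4 Control libraries were from mice kept in ordinary cages throughout, the 2 Unloading libraries from mice whose hind legs had borne no weight for 10 days, and the 3 Reloading libraries from mice returned to normal cage activity for 1 day after that unloading. Where the labels give males, the methods speak of females. Xist, an RNA of female cells, had at most 5 counts in any library. The labels do not tie libraries to animals, so the p-values measure the spread between these libraries.

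Library totals ran from 9252443 to 19612101 read pairs, and the members took 0.427% to 0.436% of them in Reloading, 0.462% to 0.527% in Control and 0.520% to 0.593% in Unloading. Levels are counts per 1000000 read pairs (CPM), with library sizes scaled by TMM (a trimmed mean over genes), and differences are log2 fold changes with a standard error (SE). A gene is called where its adjusted p was under 0.05 over all 14851 genes tested, and all 148 members were tested. Transcripts of skin were present in Control 2 and Reloading 1, with 1086 and 502 counts of the keratin gene Krt2 against at most 3 in any other library, and counts of called members without both libraries are given below. Because whole muscle was sequenced, fewer cells of a type and less RNA per cell cannot be told apart.

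One day of reloading after unloading was marked by lower levels of most of these lncRNAs. Of the 148, 81 were lower and 12 higher in Reloading than in Unloading, and 55 did not pass the test. Over all tested genes 37.5% were called, 18.5% higher and 19% lower, while 62.8% of the members were called, 8.11% higher and 54.7% lower. The median log2 fold change was -0.50 for the members and 0.03 for all tested genes. Among the 606 tested lncRNA genes that are not members the median was -0.27, with 98 lower and 42 higher, and among 12483 protein-coding genes it was 0.01. Falls of the called members ran from -0.35 to -1.91, with 19 members down at least 2-fold and 5 up at least 2-fold. With scaling by library totals alone the median of all genes moved to 0.27, and 21 members were called higher and 54 lower, while the median of the members stayed 0.53 below that of all genes under both scalings. Leaving out Control 2 and Reloading 1 gave 11 higher and 77 lower. Markers of muscle fibres moved the same way: 11 of 16 were lower, none was higher, their median was -0.50 and their summed level was 159742 to 174877 CPM in Reloading against 229321 to 230939 in Unloading. The parts of fibre content and of the choice by summed counts in the lncRNA result were not tested.

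**Figure D1:**
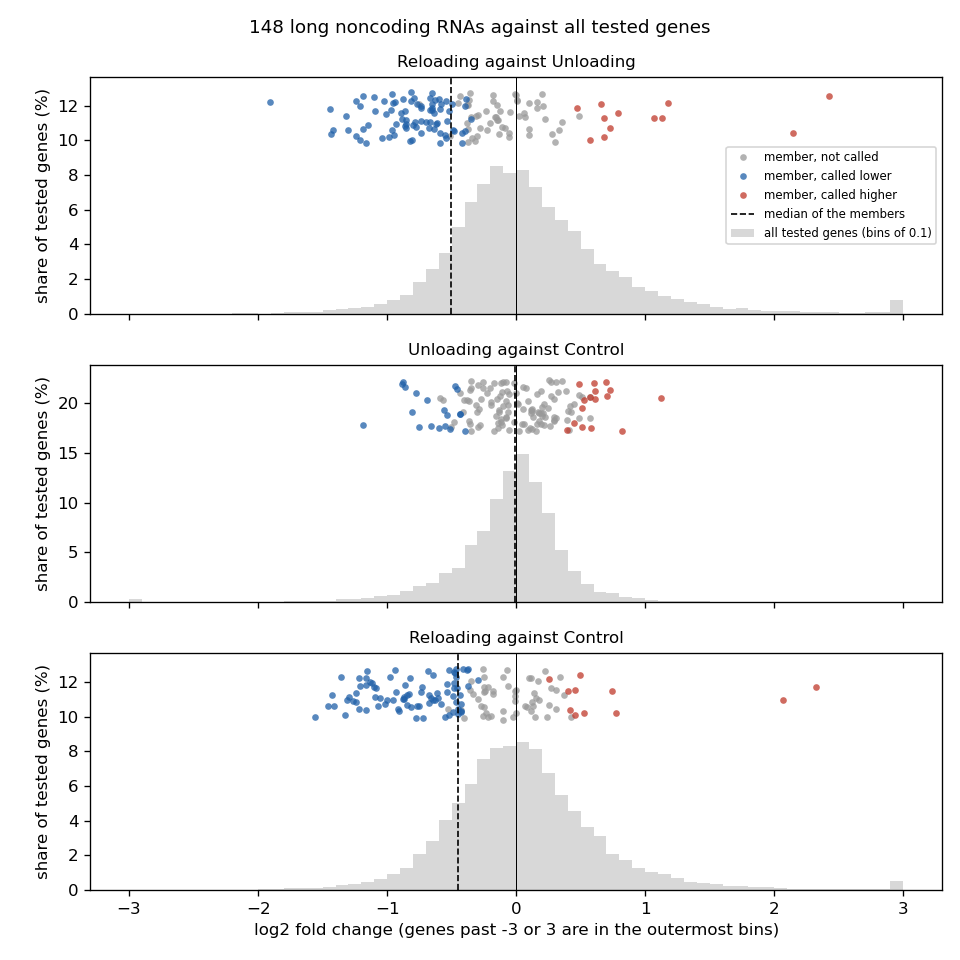
Log2 fold changes (x axis) of the 148 lncRNAs, as points coloured by call and spread vertically for visibility, above the distribution of all tested genes as grey bars (y axis, share of genes in percent). The dashed line is the median of the members, which lies at -0.50, -0.01 and -0.45 in Reloading against Unloading, Unloading against Control and Reloading against Control.

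The most abundant members included Malat1, Neat1, Oip5os1 and Norad, which are known from many tissues, and the muscle transcript Nctc1. Per kilobase of exon, Malat1 had the highest mean level, 115.7 CPM, followed by Gm12319 with 111.1, Oip5os1 with 99.3, 2310040G24Rik with 94.1 and Neat1 with 48.7. Next were Norad with 40.8, Nctc1 with 37.4, 2310065F04Rik with 35.3, Gm11716 with 30.3 and Gm37529 with 27.4 CPM per kilobase. Neat1, Malat1 and Oip5os1 together held 53.59% of all counts of the members.

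Neat1 (GRCm38 chr19:5824708-5845478, minus strand), the scaffold of paraspeckles, had 957, 958, 1085 and 922 CPM in Control, 1546 and 1243 in Unloading and 903, 730 and 764 in Reloading. Counts were per gene, so its transcript forms were not told apart, and any form without a poly(A) tail was sampled poorly. The Unloading libraries were above every other library and the Reloading libraries below every other, with no overlap between groups. Neat1 was higher in Unloading than in Control by 0.51 (SE 0.10, adjusted p = 0.00646) and lower in Reloading than in Unloading by -0.80 (SE 0.11, adjusted p = 4.5e-05). The call against Control in Unloading was lost without Unloading 1. Leaving out either Unloading library leaves 1 in that group, which the test then assumes to vary like the libraries of the other groups. Malat1 (chr19:5795690-5802672, minus strand), a neighbour of Neat1 whose own end is not a poly(A) tail, had 766, 589, 721 and 803 CPM in Control, 1167 and 881 in Unloading and 789, 765 and 790 in Reloading. Its 2 Unloading libraries were the highest, and Control and Reloading overlapped. The difference was 0.51 (SE 0.11, adjusted p = 0.0129) for Unloading against Control and -0.39 (SE 0.12, adjusted p = 0.0209) for Reloading against Unloading. Without Unloading 1 both calls of Malat1 were lost, and the second was also lost without Reloading 2 or with scaling by library totals.

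Oip5os1 (chr2:119594297-119607502, plus strand), known as Cyrano, carries a conserved site for miR-7 and directs the destruction of that microRNA. It had 1136, 906, 1005 and 1088 CPM in Control, 895 and 915 in Unloading and 443, 513 and 523 in Reloading. Reloading stood apart from both other groups, which overlapped. The level in Reloading was lower than in Unloading by -0.88 (SE 0.10, adjusted p = 9.13e-06) and lower than in Control by -1.07 (SE 0.08, adjusted p = 1.79e-07), and Oip5os1 shares no exon base with another gene. Norad (chr2:156388065-156392979, minus strand), which binds Pumilio proteins in the cytoplasm, had 209, 197, 211 and 238 CPM in Control, 237 and 252 in Unloading and 156, 147 and 159 in Reloading. All Reloading libraries were again below all others, with -0.67 against Unloading (SE 0.08, adjusted p = 2.53e-05). Nctc1 (chr7:142544609-142558596, minus strand), a muscle transcript of the imprinted Igf2 and H19 region, fell from 181 and 152 CPM in Unloading to 82.8, 73.8 and 114 in Reloading, with 138, 133, 138 and 144 in Control. The difference between Reloading and Unloading was -0.88 (SE 0.13, adjusted p = 0.000145).

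**Figure D2:**
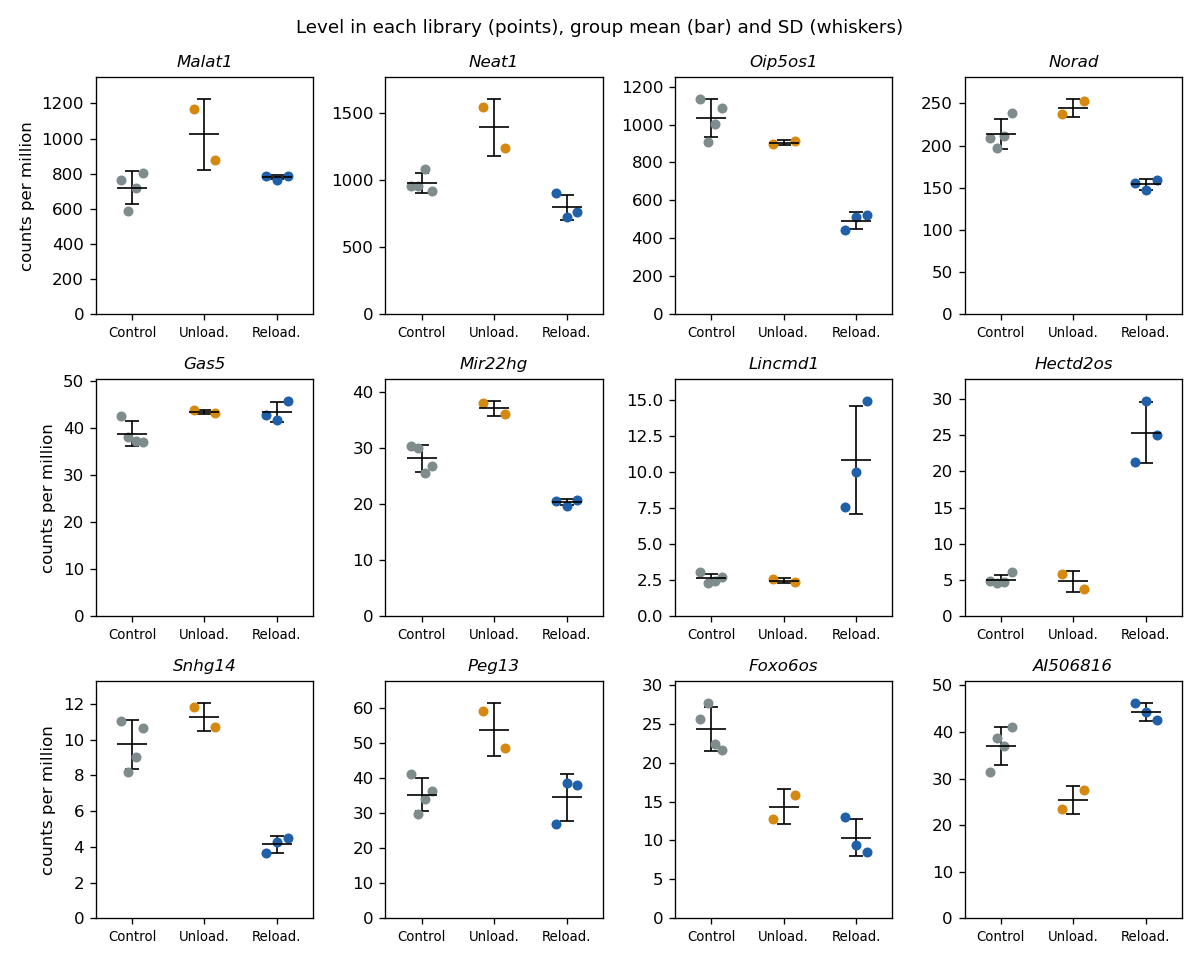
Level of 12 members in CPM (y axis, from 0) in each library of Control, Unloading and Reloading; points are libraries, bars are group means and whiskers are the SD. Neat1, Peg13 and Mir22hg are highest in Unloading, Oip5os1, Norad and Snhg14 lowest in Reloading, and Lincmd1 and Hectd2os highest in Reloading.

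Against this background, Lincmd1 and Hectd2os rose more than 4-fold. Lincmd1 (linc-MD1, GRCm38 chr1:20669882-20684298, plus strand) is a muscle lncRNA that binds miR-133 and miR-135 and promotes differentiation of myoblasts, and the hairpins of miR-206 and miR-133b lie inside its gene. Its level was 3.04, 2.32, 2.43 and 2.75 CPM in Control, 2.62 and 2.35 in Unloading and 7.58, 10.1 and 14.97 in Reloading. Every Reloading library was above every other, and Control and Unloading overlapped. Against Unloading, the level of Lincmd1 in Reloading was 4.41-fold higher (log2 fold change 2.14, SE 0.26, adjusted p = 1.68e-05) and against Control 4.18-fold higher (2.06, SE 0.21, adjusted p = 2.2e-06). The transcription factor genes Myod1 and Myog, which drive myoblast differentiation, were also higher in Reloading than in Unloading, by 1.30 (SE 0.18, adjusted p = 6.22e-05) and 1.41 (SE 0.23, adjusted p = 0.00025), while Pax7, the marker of satellite cells, differed by -0.15 (SE 0.26, adjusted p = 0.68). Of the other tested markers of satellite cells and myoblasts, Vcam1 was higher by 0.95, and Myf5 at -0.33, Chrdl2 at -0.34 and Cdh15 at -0.27 did not pass, so that the median of the 7 was -0.15.

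Hectd2os (chr19:36614052-36705641, minus strand) runs across the ubiquitin ligase gene Hectd2 on the opposite strand. It had 4.85, 4.56, 4.79 and 6.09 CPM in Control, 5.84 and 3.77 in Unloading and 21.3, 29.7 and 25.0 in Reloading. The Reloading libraries were all above the others by a wide gap, 5.37-fold against Unloading (2.42, SE 0.19, adjusted p = 3.6e-07) and 4.99-fold against Control (2.32, SE 0.15, adjusted p = 3.06e-08). Of its exon bases, 46.1% are shared with other annotated genes, Hectd2 included, and strand was not used in counting. Hectd2 itself differed by -0.08 (SE 0.17, adjusted p = 0.739) between Reloading and Unloading.

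The other members that rose from Unloading to Reloading did so by less. Map2k3os, which starts 166 bases from Map2k3 (a kinase of the p38 pathway) and runs the opposite way, had 3.22 and 2.73 CPM in Unloading and 7.33, 5.21 and 7.55 in Reloading, a difference of 1.18 (SE 0.22, adjusted p = 0.000615). Gm14236 rose by 1.13 (SE 0.23, adjusted p = 0.00158), Gm7607 by 1.07 (SE 0.19, adjusted p = 0.000528) and AI506816 by 0.79 (SE 0.11, adjusted p = 6.23e-05). Gm17201 rose by 0.73, with 59.5% of its exon bases shared, and its partner Ankrd52 rose by 0.83. The remaining rises were 0.68 for 2310020H05Rik, 0.68 for Gm10076, 0.66 for Brip1os, 0.57 for Gm15935 and 0.47 for Gm10605. Of these, 2310020H05Rik lost its call without Unloading 1, Gm10076 without Reloading 2 or either Unloading library, Brip1os without Reloading 2 or Unloading 1, and Gm15935 without Reloading 1, Reloading 3 or Unloading 2. The calls of Brip1os and Gm15935 were also lost with DESeq2.

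Annotated microRNA genes lie inside 10 members on the same strand, and 7 of these 10 were called between Reloading and Unloading, 6 lower and 1 higher, beside 19% lower and 18.5% higher over all tested genes. The libraries hold host RNA, not mature microRNAs, whose levels were not measured. The mature sequences below are shown because the hosts moved in different directions. They are from RefSeq on GRCm38.p6, with the seed (bases 2 to 8 from the 5′ end, which pairs with targets) in capitals. The Lincmd1 hairpins are miR-206 at chr1:20679010-20679082, across an exon edge, and miR-133b at chr1:20682769-20682887, in an exon.
miR-206-3p: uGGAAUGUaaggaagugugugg
miR-133b-3p: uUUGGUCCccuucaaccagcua
The Mir22hg hairpin is exonic at chr11:75463716-75463810, and those of A330023F24Rik are exonic at chr1:195037040-195037120 and chr1:195037547-195037634. The 2 mature forms of miR-29 share their seed.
miR-22-3p: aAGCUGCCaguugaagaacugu
miR-29b-3p: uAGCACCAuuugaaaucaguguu
miR-29c-3p: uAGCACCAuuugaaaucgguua
The hairpin in E130102H24Rik is exonic at chr4:101346945-101347027, and those of Dleu2 are at chr14:61631880-61631972, across an exon edge, and chr14:61632027-61632110, in an intron. The Dleu2 pair also shares a seed.
miR-101a-3p: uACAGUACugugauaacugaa
miR-16-5p: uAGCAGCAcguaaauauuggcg
miR-15a-5p: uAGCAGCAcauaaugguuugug

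Each host other than Lincmd1 had a negative log2 fold change in Reloading against Unloading. Mir22hg had 30.4, 30.1, 25.6 and 26.9 CPM in Control, 38.1 and 36.2 in Unloading and 20.6, 19.7 and 20.9 in Reloading. The 3 groups did not overlap: it was higher in Unloading than in Control by 0.40 (SE 0.09, adjusted p = 0.0126) and lower in Reloading than in Unloading by -0.86 (SE 0.10, adjusted p = 9.08e-06). A330023F24Rik followed the same order, with 13.3, 13.6, 14.3 and 18.5 CPM in Control, 23.1 and 19.01 in Unloading and 10.4, 10.9 and 9.60 in Reloading, a difference of -1.03 between Reloading and Unloading (SE 0.14, adjusted p = 6.89e-05). Mir133a-1hg, the host of miR-133a-1 and of miR-1a-2, the main muscle microRNAs, had 5.84 and 5.68 CPM in Unloading and 2.498, 2.46 and 3.38 in Reloading, with 7.33, 5.64, 5.79 and 7.98 in Control. Its difference between Reloading and Unloading was -1.04 (SE 0.20, adjusted p = 0.000928), so hosts of miR-133b and miR-133a-1 moved in opposite directions.

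Further hosts that fell in Reloading against Unloading were Gm49794 by 1.44 (that of Mir7217 and Mir7218), E130102H24Rik by 0.65 and 2900076A07Rik by 0.59 on the log2 scale. Those not called were Mir100hg, the host of miR-100, let-7a-2 and miR-125b-1, at -0.36 (SE 0.20), Dleu2 at -0.24 (SE 0.16) and Snhg20 at -0.16 (SE 0.21). Among 16 proteins of microRNA processing, 4 were lower and 1 higher in Reloading than in Unloading, beside 37.5% called over all tested genes. The falls were Tnrc6b at -0.50, Ddx5 at -0.49, Ddx17 at -0.42 and Dicer1 at -0.28, and the rise was Ago2 at 0.21.

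Hosts of snoRNAs moved in both directions. Of 17 members with an annotated snoRNA or scaRNA gene inside them, 12 did not pass the test in Reloading against Unloading, 4 were lower and 1 was higher, which is 29.4% called beside 37.5% of all tested genes. Their median log2 fold change was 0.00, with 9 positive and 8 negative values. The 123 members with no small RNA gene inside them had a median of -0.55, with 72 lower and 10 higher. Gas5 (chr1:161034422-161038539, plus strand), whose gene holds 10 annotated snoRNA entries (2 of them overlapping) and whose RNA builds up in growth arrest, had 42.7, 38.2, 37.2 and 37.1 CPM in Control, 43.9 and 43.2 in Unloading and 43.0, 41.8 and 45.9 in Reloading. The groups of Reloading and Unloading overlapped, with a difference of 0.00 (SE 0.08, adjusted p = 0.993). Snhg1 at 0.10 (SE 0.15), Snhg5 at 0.10 (SE 0.15), Snhg12 at 0.06 (SE 0.18), Zfas1 at -0.05 (SE 0.16) and Snhg6 at -0.05 (SE 0.13) were likewise not called. Snhg17 differed by 0.28 (SE 0.17), 2410006H16Rik by 0.10 (SE 0.18), 1110038B12Rik by 0.33 (SE 0.19), 2310014F06Rik by 0.07 (SE 0.18) and Snhg8 by -0.30 (SE 0.12), none of them called.

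The host that rose was AI506816, which carries a single annotated snoRNA. It had 31.5, 38.7, 36.9 and 41.0 CPM in Control, 23.4 and 27.6 in Unloading and 46.3, 44.2 and 42.5 in Reloading, so Unloading was below and Reloading above all Control libraries. The hosts that fell were Snhg14 by 1.44, Gm29170 by 1.21, 2900076A07Rik by 0.59 and 9330159M07Rik by 0.49 on the log2 scale. Of 16 proteins that assemble snoRNPs and ribosomes, 7 were higher and none lower in Reloading than in Unloading, among them Gar1 at 0.65 (SE 0.14, adjusted p = 0.00159) and Nhp2 at 0.59 (SE 0.11, adjusted p = 0.000638), both parts of H/ACA snoRNPs, and Nolc1 at 0.55 (SE 0.08, adjusted p = 0.0001). Of 21 factors of nonsense-mediated decay 3 were higher and 5 lower, a share near the 37.5% called over all tested genes.

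**Figure D3:**
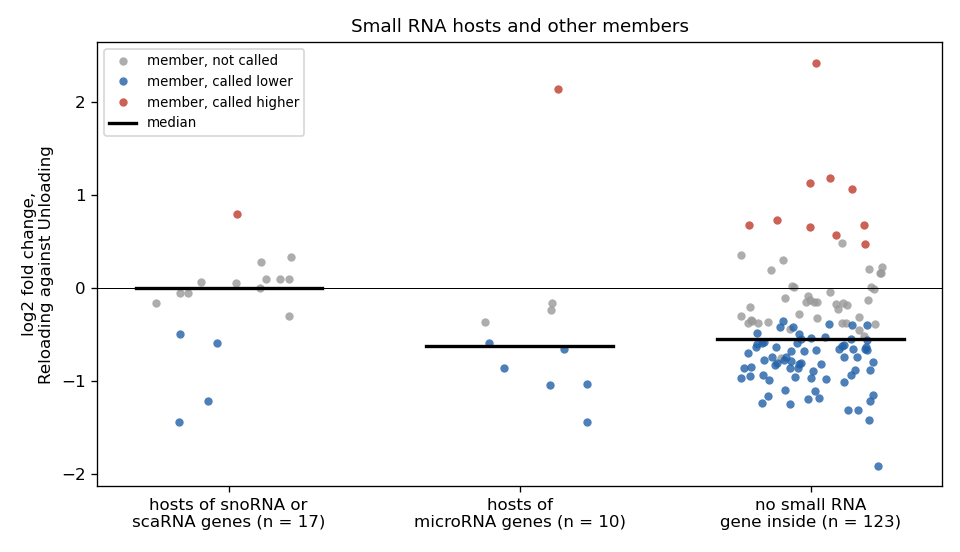
Log2 fold change in Reloading against Unloading (y axis) of members that host snoRNA or scaRNA genes, members that host microRNA genes and members with neither (x axis); 2 members are in both host classes. Points are members coloured by call and black lines are medians, which lie at 0.00, -0.62 and -0.55.

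The largest falls were in less studied transcripts. Gm44421 (chr6:90478466-90479686, plus strand), with no coding gene start within 5 kb, had 10.7, 8.95, 7.002 and 9.44 CPM in Control, 17.8 and 11.5 in Unloading and 3.22, 3.40 and 4.83 in Reloading. The groups did not overlap, and Reloading was 3.76-fold lower than Unloading (log2 fold change -1.91, SE 0.22, adjusted p = 1.14e-05). Gm26740 (chr10:22187013-22302835, minus strand) had 31.9, 28.0, 34.9 and 32.8 CPM in Control, 32.3 and 34.9 in Unloading and 11.9, 14.6 and 16.0 in Reloading. Control and Unloading overlapped and Reloading lay below both, by -1.24 against Unloading (SE 0.12, adjusted p = 2.82e-06). The other members among the 10 largest falls were Gm49794 and Snhg14 at -1.44, Gm37529 at -1.42, 2610035D17Rik at -1.32, Gm11266 at -1.30, Gm43672 at -1.24, and Junos and Gm29170 at -1.21. Gm37529 varied most, from 62.9 to 240.0 CPM within Control, and its call was lost without Unloading 1, with the robust fit and with DESeq2.

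Imprinted and X-linked lncRNAs were measured as well. Snhg14 (chr7:59307924-59975759, minus strand), the long transcript from the paternal chromosome that carries the SNORD115 and SNORD116 clusters and runs antisense to Ube3a, had 11.1, 8.21, 9.003 and 10.6 CPM in Control, 11.8 and 10.7 in Unloading and 3.63, 4.27 and 4.50 in Reloading. All Reloading libraries were below all others, with -1.44 against Unloading (SE 0.16, adjusted p = 8.18e-06). Ube3a fell in the same comparison, by 0.76 on the log2 scale (adjusted p = 0.000103). Peg13, a paternally expressed RNA, had 41.1, 29.8, 34.1 and 36.3 CPM in Control, 59.2 and 48.4 in Unloading and 26.8, 38.7 and 37.9 in Reloading, with the Unloading libraries on top and the other groups overlapping. It differed by 0.61 (SE 0.14, adjusted p = 0.0132) for Unloading against Control and by -0.63 (SE 0.15, adjusted p = 0.00334) for Reloading against Unloading, and both calls were lost without Unloading 1. Airn, the antisense RNA of the Igf2r region, did not pass in any comparison, at -0.32 (SE 0.15, adjusted p = 0.111) for Reloading against Unloading.

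Firre, an X-linked RNA that takes part in nuclear organisation, had 24.0, 21.9, 27.0 and 24.9 CPM in Control, 39.0 and 31.9 in Unloading and 29.6, 21.4 and 28.5 in Reloading. Unloading was above both groups, by 0.53 against Control (SE 0.13, adjusted p = 0.0171), and Reloading was lower than Unloading by -0.42 (SE 0.13, adjusted p = 0.0224). Both calls were lost without Unloading 1, the second also without Reloading 2 or with library totals. Chaserr, a neighbour of Chd2 known to restrain it, shares 25.3% of its exon bases with annotated genes on the same strand, Chd2 included. It had 15.8 and 14.8 CPM in Unloading against 11.3, 11.7, 10.3 and 11.5 in Control and 9.11, 10.4 and 11.5 in Reloading. It was higher in Unloading than in Control by 0.45 (SE 0.12, adjusted p = 0.0244), a call lost without Control 3 or either Unloading library, and lower in Reloading than in Unloading by -0.55 (SE 0.12, adjusted p = 0.00235), a call lost with library totals. Chd2 differed by -0.09 (adjusted p = 0.567) and -0.17 (adjusted p = 0.173) in the same comparisons. Jpx, an activator of Xist, was not called, at -0.45 (SE 0.23) for Reloading against Unloading.

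Unloading against Control shows what 10 days without weight bearing did to the same RNAs. Of the 148 members, 16 were higher and 19 lower, 23.6% in all, beside 9.9% of all tested genes. Over all tested genes 4.4% were called higher and 5.5% lower. Of the 77 members with 1000 or more counts 28 were called, 36.4%, and of the 606 tested lncRNA genes that are not members 5.28%. The part of count depth in these shares was not tested. The median log2 fold change was -0.01 for the members and -0.00 for all genes. Without Unloading 1, with a single Unloading library left, 2 members, Gm30794 and Gm28651, were called, and 121 of 15498 genes over the whole table. Without Unloading 2, by the same kind of test, 26 members were called.

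The largest rise in Unloading was that of Gm37422, from 2.93, 5.39, 5.86 and 6.01 CPM in Control to 14.8 and 7.98, by 1.12 (SE 0.24, adjusted p = 0.00883), and Smyd2, which it overlaps on the opposite strand, rose by 0.60 (adjusted p = 0.00493). Gm12940, of whose exon bases 71.8% are shared, rose by 0.82 (SE 0.14), 5031425E22Rik, beside Kmt2e, by 0.73 (SE 0.12), Gm31305 by 0.71 (SE 0.12) and Gm44421 by 0.70 (SE 0.19). The next were Gm9821 and Peg13 at 0.61, Gm29170 at 0.61, 5930430L01Rik at 0.58 and Gm15675 at 0.57. Among 20 proteins of nuclear speckles and splicing, 9 were higher and none lower in Unloading than in Control. Among the 9 were the kinase Clk1 at 0.60 and the scaffold Srrm2 at 0.54. Over all tested genes 4.4% were called higher and 5.5% lower. In Reloading against Unloading 9 of the 20 were lower and 1 higher, with Pnisr at -0.78, Clk4 at -0.71 and Clk1 at -0.69. All tested genes gave 19% lower and 18.5% higher in that comparison. Of 19 paraspeckle proteins, 2 were higher and none lower in Unloading than in Control, a share near the 9.9% called over all tested genes. In Reloading against Unloading 4 of the 19 were higher, with Rbm14 at 0.62, and 3 lower, with Matr3 at -0.56. That share is near the 37.5% called over all tested genes.

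Of the falls in Unloading, that of Gm30794 was largest. Gm30794 (chr17:87454969-87460364, minus strand) had 18.8, 22.1, 19.01 and 19.9 CPM in Control, 6.51 and 10.8 in Unloading and 9.03, 8.75 and 8.94 in Reloading. Control lay above both other groups, which overlapped, with -1.19 for Unloading against Control (SE 0.16, adjusted p = 0.000553) and 0.02 for Reloading against Unloading (SE 0.17, adjusted p = 0.936). Gm28651 had 9.92, 10.9, 9.50 and 10.98 CPM in Control, 5.54 and 5.63 in Unloading and 5.72, 7.01 and 6.62 in Reloading, a fall of 0.89 on the log2 scale from Control to Unloading (SE 0.13, adjusted p = 0.00159). Gm29773 at -0.88 (SE 0.15) and Gm15179 at -0.78 (SE 0.15) were also low in both Unloading and Reloading. Gm29773 was at 12.7 ± 1.17 CPM in Unloading (n = 2) and 11.3 ± 1.87 in Reloading (n = 3) against 23.4 ± 3.28 in Control (SD, n = 4). Of the exon bases of Gm15179, 25.4% are shared with other annotated genes, the desmin gene Des included.

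In a further group each step was a fall. Foxo6os, which starts 4001 bases from the transcription factor gene Foxo6, had 25.6, 27.7, 22.4 and 21.6 CPM in Control, 12.7 and 15.9 in Unloading and 13.1, 9.47 and 8.54 in Reloading. It fell from Control to Unloading by 0.76 on the log2 scale (SE 0.16, adjusted p = 0.00775), as Foxo6 did by 0.79 (adjusted p = 0.00596), and Reloading overlapped Unloading and was lower by -0.48 (SE 0.17, adjusted p = 0.0356), a call lost without Reloading 2, Reloading 3 or Unloading 2 or with library totals. Gm4544 went from 12.0 ± 0.847 (SD, n = 4) CPM in Control to 7.83 ± 1.13 (n = 2) on unloading and 4.31 ± 0.801 (n = 3) on reloading, Gm50194 from 18.8 ± 1.92 to 10.7 ± 2.38 and 7.003 ± 0.904, and Gm34455 from 7.95 ± 1.52 to 5.03 ± 0.0833 and 3.24 ± 0.434. The remaining members among the 10 largest falls in Unloading were Gm14236 at -0.86 and Gm10076 at -0.69, both of which rose again in Reloading.

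Reloading against Control compares the muscle after both treatments with untreated muscle, and shares its libraries with the comparisons above. Here 84 members were lower and 11 higher, 64.2% of the 148, beside 43.5% of all tested genes, of which 22.1% were called higher and 21.3% lower. The median was -0.45 for the members and 0.01 for all genes. With library totals the median of all genes was 0.25, and 62 members were lower and 27 higher. Without Control 2 and Reloading 1, 80 were lower and 6 higher. The largest falls were Gm49794 at -1.56 (SE 0.26, adjusted p = 0.000181), Gm4544 at -1.46 (SE 0.14, adjusted p = 1.25e-06), Gm50194 at -1.43 (SE 0.14, adjusted p = 1.25e-06), Plet1os at -1.41 (SE 0.20, adjusted p = 4.35e-05) and Gm20300 at -1.36 (SE 0.10, adjusted p = 1.01e-07).

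Gm10762 (chr2:128965505-128968044, minus strand) had the least spread of these, with 27.6, 28.0, 27.8 and 28.1 CPM in Control, 23.3 and 27.6 in Unloading and 10.8, 12.0 and 10.9 in Reloading. Reloading stood below both groups, by -1.31 against Control (SE 0.09, adjusted p = 5.63e-08). AW112010, an interferon-inducible RNA of immune cells, had 7.56, 6.22, 14.7 and 6.09 CPM in Control and 3.55, 3.25 and 3.71 in Reloading, a fall of 1.32 on the log2 scale (SE 0.28, adjusted p = 0.0014). In the same comparison 11 of 15 macrophage markers were higher and none lower, beside 22.1% higher and 21.3% lower over all tested genes. The summed level of these markers was 194.9 to 223.2 CPM in Reloading and 102.4 to 122.0 in Control. The part of macrophages in the level of AW112010 was not tested. Gm34455 at -1.29, Gm11716 at -1.26 and Mir133a-1hg at -1.25 were the other members among the 10 largest falls. After Hectd2os and Lincmd1, the rises against Control were small, 0.77 for Gm7607, 0.74 for Map2k3os and 0.52 or less for Brip1os, Gm15935, Snhg17, 2310014F06Rik, Gm49172, 9230112E08Rik and AI506816. Each of those from Brip1os on lost its call without at least 1 library. The call of 2310014F06Rik was also lost with the numbers in the sample descriptions as a block. These numbers were taken to pair the libraries, which the labels do not state.

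Many members sit close to a coding gene. Exon bases were shared with another gene by 79 members, 3 of them over more than 50% of their length, and 69 shared none. Among the 69 without shared bases, 40 were lower and 5 higher in Reloading than in Unloading, with a median of -0.59, beside 19% lower and 18.5% higher over all tested genes. By position, 32 of 56 members that lie outside coding genes and have no coding gene start within 5 kb were lower and 5 higher. Of 47 whose exons overlap a coding gene on the opposite strand 27 were lower and 6 higher, and of 21 that share no coding exon and start within 1 kb of a coding start on the opposite strand 10 were lower and 1 higher. A further 6 of the 47 also start within 1 kb of such a coding start.

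A coding neighbour could be named for 80 members, and in 76 pairs both genes were tested. In Reloading against Unloading the lncRNA was called in 46 of these pairs and the neighbour in 39, beside 37.5% of all tested genes. Both were called in 28 pairs, with both lower in 20, both higher in 2 and opposite signs in 6. Whether the joint calls exceed what the separate calls give was not tested. Spearman's rho over the 76 pairs was 0.38 and Pearson's r was 0.22, as a description of pairs that share libraries and, in part, sequence. The 47 pairs with shared exon bases had a rho of 0.48. In 27 pairs the lncRNA starts within 1 kb of a coding start on the opposite strand, and their rho was 0.13. For 6 of these 27 the neighbour used was the gene with shared exon bases, not the one at that start. Those 6 are also among the 47. The median was -0.40 for the lncRNAs of these pairs and -0.14 for their coding neighbours.

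Among the pairs of opposite sign, Junos, which overlaps the AP-1 gene Jun on the opposite strand, had 7.67, 6.55, 7.50 and 7.04 CPM in Control, 9.58 and 8.25 in Unloading and 2.82, 3.98 and 4.57 in Reloading. Reloading lay below both groups, by -1.21 against Unloading (SE 0.17, adjusted p = 8.36e-05), while Jun was higher by 0.76 (SE 0.15, adjusted p = 0.00106). Plet1os was lower by -1.01 (SE 0.23, adjusted p = 0.00304) and Plet1 higher by 2.16 (adjusted p = 0.00482), at a mean of 0.975 CPM. The other pairs were 4930516B21Rik at -0.97 with the mitochondrial nuclease gene Exog at 1.13, Gm20544 at -1.15 with the TGF-beta inhibitor gene Smad7 at 0.51, Gt(ROSA)26Sor at -0.54 with Thumpd3 at 0.48, and Brip1os at 0.66 with Med13 at -0.29. These pairs were chosen after their values were seen.

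**Figure D4:**
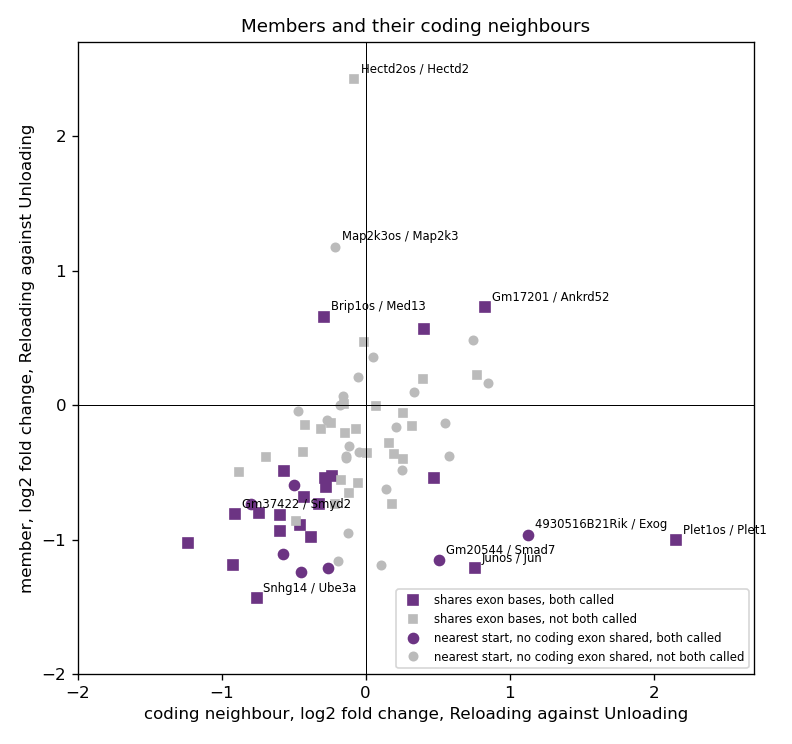
Log2 fold change in Reloading against Unloading of each member (y axis) and of its coding neighbour (x axis) for 76 pairs. Squares share exon bases and circles do not share exon bases with that coding gene; purple marks pairs with both genes called, of which 20 lie in the lower left, 2 in the upper right and 6 in the quadrants of opposite sign.

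Start regions were available in RefSeq for 97 members, 79 of them within 1000 bases of the start in the count table. Among these 79 regions of 300 bases (250 before to 50 after the start), 7 held a MEF2 box on either strand, the binding motif of MEF2 factors in muscle genes (CTA and TAG around a run of A or T), which is 8.86% of them against 0.557% of all 32851 start regions. TATAAA, which can overlap a MEF2 box, was in 21.5% against 13.6%, CACGTG in 11.4% against 7.15%, CAGCTG in 11.4% against 16.3%, TGANTCA in 2.53% against 7.81% and GAANNTTC in 5.06% against 7.86%. TGACGTCA was in 3.8% against 1.79% and the CArG box in 2.53% against 1.63%. The members were chosen for their abundance in muscle, and a match is a description, not a binding site. The regions with a MEF2 box belonged to Lincmd1, 2310020H05Rik, Gm4544, Junos, Gm15179, Dleu2 and Snhg1. Their log2 fold changes in Reloading against Unloading ran from 2.14 for Lincmd1 to -1.21 for Junos. Gm15179 and Snhg1 start within 1 kb of a coding start on the opposite strand, so their regions may belong to that coding gene as well.

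The first 5 of these regions with a MEF2 box are printed below on GRCm38.p6 with the box in capitals. They are examples of members that moved in different directions. Gm15179 was not called in Reloading against Unloading, at -0.20, and was lower in Reloading than in Control by -0.98. Dleu2, which was called lower in Reloading than in Control at -0.38, and Snhg1 are not shown. Lincmd1 is shown at chr1:20669632-20669931 on the plus strand, 2310020H05Rik at chr13:99087872-99088171 on the minus strand, Gm4544 at chr15:102657222-102657521 on the plus strand, Junos at chr4:95052067-95052366 on the plus strand and Gm15179 at chr1:75374966-75375265 on the minus strand. The box begins 63, 131, 55, 71 and 240 bases before the RefSeq start, in that order. The RefSeq starts of Gm4544 and Junos lie 361 and 783 bases from the start in the count table.
Lincmd1: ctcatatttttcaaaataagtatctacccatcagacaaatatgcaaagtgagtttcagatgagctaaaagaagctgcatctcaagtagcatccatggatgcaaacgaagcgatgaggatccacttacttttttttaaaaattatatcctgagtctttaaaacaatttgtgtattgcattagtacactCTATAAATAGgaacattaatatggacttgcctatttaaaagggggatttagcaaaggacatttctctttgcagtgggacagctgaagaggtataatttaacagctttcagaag
2310020H05Rik: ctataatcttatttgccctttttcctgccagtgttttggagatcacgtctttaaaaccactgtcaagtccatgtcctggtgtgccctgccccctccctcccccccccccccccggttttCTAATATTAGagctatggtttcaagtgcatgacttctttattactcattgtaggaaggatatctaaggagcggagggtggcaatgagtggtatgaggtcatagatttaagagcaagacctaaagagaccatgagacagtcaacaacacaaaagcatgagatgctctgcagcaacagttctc
Gm4544: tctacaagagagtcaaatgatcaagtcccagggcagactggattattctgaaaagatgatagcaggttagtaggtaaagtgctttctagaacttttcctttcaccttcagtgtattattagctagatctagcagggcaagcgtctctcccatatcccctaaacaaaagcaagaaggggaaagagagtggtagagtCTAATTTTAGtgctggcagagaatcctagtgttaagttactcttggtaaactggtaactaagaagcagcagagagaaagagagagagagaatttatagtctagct
Junos: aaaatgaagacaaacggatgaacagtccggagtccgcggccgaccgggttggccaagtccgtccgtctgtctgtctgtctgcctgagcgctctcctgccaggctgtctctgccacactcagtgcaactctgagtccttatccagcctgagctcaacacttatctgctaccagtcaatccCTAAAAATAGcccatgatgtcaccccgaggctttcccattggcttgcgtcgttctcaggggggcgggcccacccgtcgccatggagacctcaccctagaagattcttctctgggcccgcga
Gm15179: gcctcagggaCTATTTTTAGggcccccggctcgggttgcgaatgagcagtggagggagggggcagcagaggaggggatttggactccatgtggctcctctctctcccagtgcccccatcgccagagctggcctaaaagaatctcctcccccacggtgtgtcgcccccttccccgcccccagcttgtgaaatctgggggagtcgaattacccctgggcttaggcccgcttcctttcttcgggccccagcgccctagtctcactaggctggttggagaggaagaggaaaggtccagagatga

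Among markers of other cells, macrophage, endothelium and tendon genes were higher in Reloading than in Unloading for 12 of 15, 10 of 11 and 6 of 7 genes, with none lower. Smooth muscle and pericyte markers were higher for 8 of 10 and lower for 1, fibroblast and fibro-adipogenic markers higher for 4 of 10 and lower for 2, and Schwann cell and nerve markers higher for 5 of 8. Of 7 tested satellite cell and myoblast markers 3 were higher, of 7 adipocyte markers 1, and of 5 erythroid and 10 skin markers none passed. Of 12 response genes, 10 were higher, led by the chaperone gene Hspa1b at 6.95 and the stress factor gene Atf3 at 5.61. Over all tested genes 18.5% were called higher and 19% lower in this comparison, and the marker lists were not tested against those shares. The part of cell composition in the changes of the lncRNAs was not tested.

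The lists of named lncRNAs gave the following counts in Reloading against Unloading over their tested genes, members or not. Of 17 listed snoRNA hosts 1 was lower and none higher, and of 8 microRNA hosts 3 were lower. Of 16 nuclear and widely expressed lncRNAs 9 were lower and 1 higher, of 6 imprinted lncRNAs 3 were lower, and of 6 muscle and heart lncRNAs 2 were lower. Over all tested genes 19% were called lower and 18.5% higher, and the lists were not tested against those shares. Lincmd1, which was higher by 2.14, is in none of these counts, because its listed symbol was not matched. One member of the muscle and heart list, 2310065F04Rik (chr11:67112461-67120080, minus strand), had 120, 131, 121 and 120 CPM in Control, 93.3 and 112 in Unloading and 66.8, 78.4 and 85.0 in Reloading. The groups did not overlap, and Reloading was lower than Control by -0.68 (SE 0.09, adjusted p = 2e-05) and lower than Unloading by -0.42 (SE 0.10, adjusted p = 0.00476), a call lost without Unloading 2 or with library totals.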

How the data were processed

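The authors aligned reads with STAR 2.7.3a to GRCm38.p6 and counted them per gene with featureCounts 2.0.3, unstranded; the deposited table holds raw counts of read pairs with no normalization, and gene lengths in bases. The authors' comparison tables hold fold changes and p-values of their own DESeq2 test. Only the biotype, symbol and start position were read from them, and no value of those tests was used. Of their 29316 genes, 691 had the same start position as in the count table, so the 2 annotations may differ. Biotypes were matched by gene identifier. The labels give paired-end libraries and the study's methods single reads.

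The test was that of edgeR 4.0.16 (R 4.3.3) on the counts: filterByExpr (minimum count 10, minimum total 15), TMM scaling, and the quasi-likelihood F-test (two-sided) with all 9 libraries and the group as the only term, adjusted by Benjamini and Hochberg over 14851 genes in each comparison. The SE was derived from the F statistic. On simulated data, 71.6% of 2-fold changes were recovered for Reloading against Unloading (14532 genes). Counting without strand, read pairs in more than 1 gene were not counted. DESeq2 1.42.0, other scalings, no filter, fewer libraries and replicate blocks were alternatives.

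Members, gene lists and rules were chosen with earlier results of these data known. Named members were the 10 largest called rises and falls in each comparison, the 10 with the highest mean CPM per kilobase, members of the lncRNA lists and those at the count limit; others are named as hosts or neighbours, and these were chosen after their values were seen. Of 335 listed symbols 34 could not be matched, linc-MD1 among them, which the table calls Lincmd1. Neighbours were the coding gene with shared exon bases or the nearest coding start within 5 kb. Coordinates are those of the count table, GRCm38. Start regions and microRNAs are from RefSeq (GRCm38.p6). Small RNA genes inside members are from GENCODE on GRCm38.

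Correlations of deviations between same-numbered libraries were -0.201 to 0.075 for the numbers in the titles. For the numbers in the sample descriptions they were 0.361, 0.143 and 0.155 between Control and Reloading, where the numbers were taken to pair the libraries; the highest of these is between Control 2 and Reloading 1, the libraries with skin transcripts, whose part in it was not tested, and at most 0.075 between other groups.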

Additional observations from a re-analysis of the deposited data

Results flagged for a closer look

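Among the 71 named members, 4 had 1 Control library far from the other 3, by Dixon's criterion (the gap to the nearest value over the range), which chance meets in about 1 of 20 groups. AW112010 had 14.7 CPM in Control 3 and 6.09 to 7.56 in the others. Gm15179 had 23.8 CPM in Control 4 against 18.6 to 19.1, and Gm34455 had 10.2 in Control 4 against 6.96 to 7.33. 2310065F04Rik had 131 CPM in Control 2 against 119.5 to 121.3.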

How the results depend on the processing

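The counts of called members were 93, 35 and 95 for Reloading against Unloading, Unloading against Control and Reloading against Control. Leaving out 1 library in turn gave 72 to 96, 2 to 37 and 82 to 95, and the count of 2 was without Unloading 1, where the 1 Unloading library left is assumed to vary like those of the other groups. Keeping only members with 1000 or more counts gave 54, 28 and 57 of 77, and keeping only members without shared exon bases gave 45, 19 and 47 of 69, both by testing fewer members. With the replicate block, the title numbers gave 96, 26 and 92 and the description numbers 87, 32 and 98. In Reloading against Control, where the description numbers were taken to pair the libraries, the block ended the call of 2310014F06Rik and of no other called named member. Without Control 2 and Reloading 1, an alternative chosen after seeing the data, the counts were 88, 30 and 86. No called named member changed sign under any alternative run. The call was lost under at least 1 alternative for 16 of 49 named members in Reloading against Unloading, 28 of 30 in Unloading against Control and 14 of 48 in Reloading against Control. With 2 Unloading libraries and changes under 2-fold, a p that misses the threshold does not show equal levels.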
